A study of Mus musculus with 6 samples.

Results

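The polyamine synthesis and catabolism genes comprise Odc1, Amd1, Srm and Sms, which build polyamines, Smox, Sat1 and Paox, which break them down, and Azin1, Oaz1 and Oaz2, which control the first enzyme. These 10 genes were matched by the gene symbols of the array platform, and each was read from its brightest probe set that names 1 gene. By this rule 7 of the 10 were measured, among 22180 genes in all. Amd1 and Paox were not matched to a probe set and are not analysed here, and Sms was listed only on a probe set shared with its pseudogene Sms-ps, whose values are given separately.

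Putrescine, spermidine and spermine are small positively charged molecules that bind RNA, DNA and ribosomes and are needed for growth and protein synthesis. Ornithine decarboxylase makes putrescine from ornithine, and aminopropyl groups donated by decarboxylated S-adenosylmethionine, the product of the Amd1 enzyme, then extend putrescine to spermidine and spermidine to spermine. Spermine oxidase and the acetylation and oxidation route run the chain in reverse, while antizymes bind ornithine decarboxylase and send it to the proteasome, and the antizyme inhibitor binds antizymes in its place. In mouse skeletal muscle Odc1 is known as an androgen-dependent gene, Smox is known to be repressed in wasting muscle, and ornithine decarboxylase is also known to respond to food and growth stimuli.

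The arrays measured RNA of the tibialis anterior, a fast-twitch muscle of the lower leg, from male C57Bl/6 mice that were 18 weeks old. The control group was 3 samples of mice given sham surgery at 11 weeks of age. The other group was 3 samples of mice castrated at that age, an operation that takes away the testes and with them most androgen in the blood. The labels name a mouse per sample but do not state that all are different animals. All mice had 7 weeks of recovery, were kept on rodent chow, were fasted overnight before sampling and were killed under isoflurane anaesthesia. The diet label reads fasted for every sham sample and refed for every castrated sample. The series design describes a 30 minute meal for some mice and none for others, followed by 4 hours without food for all, while the protocol attached to each sample gives the meal to all mice. Surgery and diet label therefore cannot be told apart in any value below, which compares castrated mice labelled refed with sham mice labelled fasted.

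Values were deposited as log2 expression, on which a difference of 1 is a doubling, and array medians ran from 5.04 to 5.10. All 6 markers of fast fibres, the main fibre kind of this muscle, were measured, with mean log2 values of 12.46 (Pvalb) to 13.56 (Myh4). Summed levels of the marker lists overlapped between groups for fast fibres, slow fibres, endothelial cells, macrophages, tendon cells, fibro-adipogenic progenitors and the single measured erythroid and Schwann cell markers. Overlap does not mean that these lists were level. Group means were higher in castrated samples for 4 of 5 tendon markers (median log2 difference 0.48) and 5 of 5 slow fibre markers (0.33). They were lower for 3 of 3 measured fibro-adipogenic markers (−0.22). The sums did not overlap for the adipocyte list, whose 5 measured markers were Adipoq, Plin1, Cidec, Lep and Pparg. On the log2 scale its sum spanned 7.53 to 7.76 in the sham group against 7.90 to 7.92 in the castrated group, with 4 of 5 markers higher (median 0.27). These markers were dim, with mean log2 values of 4.32 (Lep, below the array medians) to 6.0 (Pparg), and were not tested against background. The part of these lists in the differences below was not tested. Castrated sample 1 stood apart in the slow fibre list, with a summed log2 level of 9.45 against 8.22 to 8.64 in sham samples. With each slow fibre marker centred on its own mean, the median was 0.86 in castrated sample 1. It was −0.22 and −0.33 in castrated samples 2 and 3, and −0.14, −0.27 and −0.23 in sham samples 1 to 3.

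Among enzymes that make polyamines, Odc1 had the clearest separation between the groups. Odc1 (Entrez 18263) encodes ornithine decarboxylase, the first and usually limiting enzyme of the pathway. Its log2 values were 10.15, 10.001 and 9.96 in sham samples 1 to 3 and 9.39, 9.14 and 9.18 in castrated samples 1 to 3. All castrated samples were low and all sham samples were high, with 0.57 on the log2 scale between the nearest samples of the groups. The mean went from 10.04 ± 0.096 in sham to 9.24 ± 0.14 in castrated samples (SD, n = 3 each), a log2 difference of −0.80 with a standard error of 0.11. The 95% interval of −1.05 to −0.55 puts castrated Odc1 between 0.483 and 0.682 of the sham level. In whole muscle, fewer cells of a type and less RNA per cell cannot be told apart.

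Odc1 had the 7th smallest p of the 22180 genes, but it did not pass the threshold of 0.05 (limma adjusted p = 0.149). It passed when the dimmest genes, below the 25th percentile of mean level, were dropped (limma adjusted p = 0.0292), when those below the 50th were dropped (limma adjusted p = 0.0137), and with a trended and robust variance prior (limma adjusted p = 0.00598). Those settings called 0.0541%, 0.144% and 0.0451% of the genes tested in them, against 0.0135% here. Over all alternatives the adjusted p of Odc1 ran from 0.00598 to 0.669.

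Srm (Entrez 20810) encodes spermidine synthase, which adds an aminopropyl group to putrescine. On the log2 scale it read 7.92, 7.72 and 7.75 in sham samples and 7.63, 7.46 and 7.56 in castrated samples. The groups did not overlap, although castrated sample 1 and sham sample 2 lay only 0.084 apart. The log2 difference was −0.24 with a standard error of 0.10 (95% interval −0.48 to −0.0070), smaller than that of Odc1, and it did not pass (limma adjusted p = 0.696).

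The probe set shared by Sms, the gene of spermine synthase, and its pseudogene Sms-ps cannot be assigned to either, and it is not counted among the members. It read 7.78, 7.71 and 7.52 in sham samples and 7.31, 7.22 and 7.19 in castrated samples. Here too every castrated sample lay below every sham sample. In a fit of all 41345 probe sets the log2 difference was −0.43 with a standard error of 0.11 and did not pass (limma adjusted p = 0.722). In that same fit the limma adjusted p was 0.654 for Odc1 and 0.801 for Srm.

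**Figure D1:**
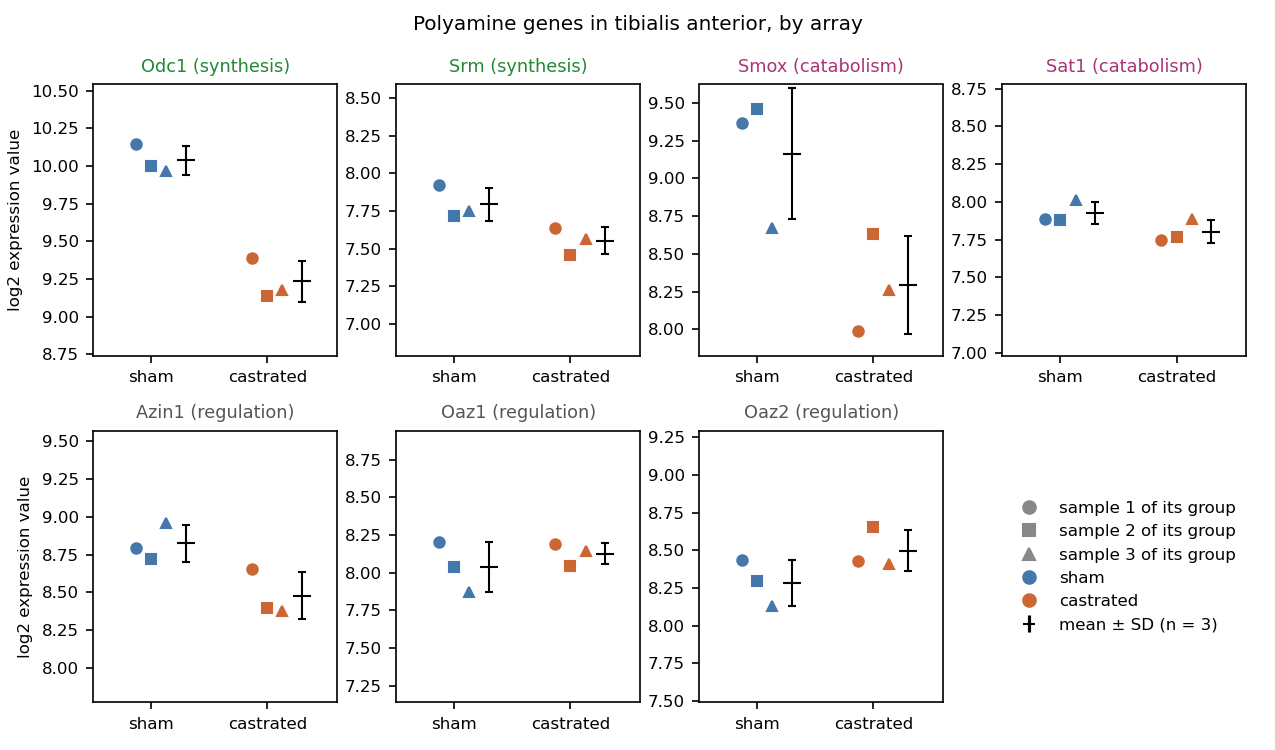
Log2 expression value (vertical axis) of each measured polyamine gene in the 3 sham and 3 castrated samples, with a marker shape for each sample number and the mean ± SD beside the points; every panel spans the same number of log2 units. The groups are separate for Odc1, Srm, Smox and Azin1 and overlap for Sat1, Oaz1 and Oaz2.

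Among enzymes that break polyamines down, Smox differed most, and its samples were the most scattered. Smox (Entrez 228608) encodes spermine oxidase, which turns spermine back into spermidine and releases hydrogen peroxide. Smox read 9.37, 9.46 and 8.67 on the log2 scale in sham samples and 7.99, 8.63 and 8.26 in castrated samples. Sham sample 3 was well below the other sham samples and only 0.037 above castrated sample 2, so the groups touched without overlapping. The mean went from 9.17 ± 0.43 to 8.29 ± 0.32 (SD, n = 3 each), a log2 difference of −0.87 with a standard error of 0.23. Castrated Smox was between 0.383 and 0.781 of the sham level by the 95% interval, and the difference did not pass (limma adjusted p = 0.521). The standard error was larger than the 0.11 of Odc1. Without the variance moderation of limma it was 0.31 for Smox, which would make the interval wider. With a sample left out the difference ran from −1.12 without sham sample 3 to −0.72 without castrated sample 1.

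Sat1 (Entrez 20229) encodes the acetyltransferase that marks spermidine and spermine for export or oxidation. Its log2 values were 7.89, 7.88 and 8.01 in sham samples and 7.75, 7.77 and 7.89 in castrated samples. The groups overlapped by 0.0068, with castrated sample 3 level with the lower pair of sham samples. The log2 difference was −0.12 (95% interval −0.35 to 0.097, limma adjusted p = 0.824), and it was −0.082 without sham sample 3 and −0.082 after quantile normalization. The interval leaves room for a castrated level between 0.787 and 1.07 of sham, so a loss of Sat1 as large as the estimates for Odc1 and Smox lies outside it.

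The RefSeq sequences before the Odc1 and Smox start sites (build GRCm38.p6, plus strand) are shown because these 2 genes, a synthesis and a catabolism enzyme, had the largest group differences of the 7 members. Capitals mark every GC box, GGGCGG or its other strand CCGCCC, the motif that Sp1-type factors bind. The Odc1 stretch is chr12:17544623-17544807 and the Smox stretch is chr2:131491612-131491857.
Odc1: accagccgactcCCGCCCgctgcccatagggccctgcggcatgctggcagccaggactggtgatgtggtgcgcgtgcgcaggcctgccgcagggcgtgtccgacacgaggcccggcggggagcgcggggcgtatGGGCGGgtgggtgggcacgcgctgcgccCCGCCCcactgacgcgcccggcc
Smox: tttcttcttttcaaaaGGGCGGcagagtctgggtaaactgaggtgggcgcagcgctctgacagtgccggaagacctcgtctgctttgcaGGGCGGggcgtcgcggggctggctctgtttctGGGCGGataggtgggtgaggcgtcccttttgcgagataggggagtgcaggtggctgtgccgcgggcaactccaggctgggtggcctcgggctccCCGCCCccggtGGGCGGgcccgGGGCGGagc
Over the full 250 bases before the start site, of which 65 for Odc1 and 4 for Smox lie inside an annotated transcript and are not shown, Odc1 held 4 GC boxes and Smox 6. Of all 32851 such RefSeq windows 32.7% held at least 1. The E-box CACGTG, the androgen and glucocorticoid receptor half-site AGAACA or TGTTCT, the cyclic AMP response element TGACGTCA and the TATA box TATAAA or TTTATA were searched on both strands too, and none of these letters occurred in the Odc1 or Smox window. They occurred in 6.02%, 16.1%, 1.55% and 12.4% of all windows.

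Promoter windows were matched for 8 of the 10 members, with Srm and Azin1 unmatched. GC boxes were found in at least 1 window for 7 of the 8, Oaz1 being the exception. This counts genes, and Sms and Paox had 2 windows each, while the 32.7% above is a share of single windows. The 2 figures were not tested against each other. The receptor half-site occurred in the windows of Sat1 and Oaz2, 1 each, and the E-box in 1 of the 2 windows of Sms. A match or its absence describes letters in these windows and says nothing of binding.

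Of the regulators, the inhibitor and the antizymes lay on different sides of 0. Azin1 (Entrez 54375) encodes antizyme inhibitor, a relative of ornithine decarboxylase that has no decarboxylase activity and frees the enzyme from antizyme. Azin1 had log2 values of 8.79, 8.72 and 8.96 in sham samples and 8.66, 8.40 and 8.38 in castrated samples. Every castrated sample lay below every sham sample, with castrated sample 1 and sham sample 2 only 0.067 apart. The log2 difference was −0.35 with a standard error of 0.12 (95% interval −0.61 to −0.082), and it did not pass (limma adjusted p = 0.668).

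Oaz1 (Entrez 18245) encodes the main antizyme, whose full-length protein is made by a ribosomal frameshift that polyamines promote. Its log2 values were 8.20, 8.04 and 7.88 in sham samples and 8.19, 8.05 and 8.15 in castrated samples. The castrated samples all lay within the sham range, and the log2 difference was 0.088 (95% interval −0.17 to 0.34, limma adjusted p = 0.903). It was 0.0056 without sham sample 3 and 0.17 without sham sample 1, so its size is not fixed by these samples. A brighter probe set shared with the pseudogene Oaz1-ps differed by 0.056 (standard error 0.11).

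Oaz2 (Entrez 18247) encodes a second antizyme. On the log2 scale it read 8.43, 8.29 and 8.13 in sham samples and 8.43, 8.65 and 8.41 in castrated samples. Castrated values were higher in 7 of the 9 pairs of a sham and a castrated sample, and the groups overlapped by 0.023. The log2 difference was 0.21 (95% interval −0.057 to 0.48, limma adjusted p = 0.762), and without castrated sample 2 it was 0.13. The other Oaz2 probe set differed by 0.17 (standard error 0.13), in the same direction. In neither antizyme gene was a difference detected with these samples, and the intervals do not show that the levels were alike.

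**Figure D2:**
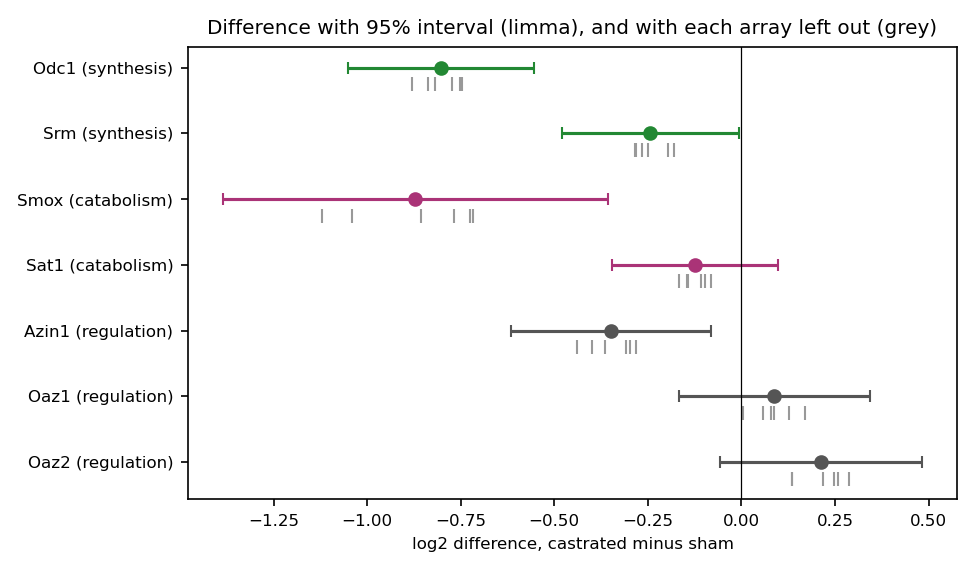
Log2 difference, castrated minus sham (horizontal axis), of each measured member with its 95% interval from limma; grey ticks under each point are the differences with each of the 6 samples left out. The Odc1 ticks lie between −0.88 and −0.75, those of Smox spread from −1.12 to −0.72, and those of Oaz1 reach down to 0.0056.

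Across the members, 5 of 7 were lower in castrated samples, with a median log2 difference of −0.24, while 51.5% of all genes were lower, with a median of −0.0056. No member passed the threshold in limma, beside 0.0135% of all genes called. At an unadjusted p under 0.05 in limma, 4 members were lower (Odc1, Srm, Smox and Azin1) and 0 were higher, beside 3.51% of all genes called lower and 3.62% called higher. The same 4 had groups that did not overlap, beside 7.02% of all genes that were lower and 5.73% that were higher without overlap. The members were chosen with earlier results of these data known, so these shares describe the list and do not test it. By step, both measured synthesis genes and both catabolism genes were lower, and of 3 regulators 1 was lower and 2 were higher. These are signs of the estimates only, as the 95% intervals of Sat1, Oaz1 and Oaz2 included 0.

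The differences of Odc1 and Smox were large for these arrays as well as for the pathway. Smox had the 28th and Odc1 the 37th largest absolute difference of 22180 genes. Only 22 genes, or 0.0992%, were lower by 0.8 or more on the log2 scale, these 2 included. The remaining members had smaller differences, with Azin1 the 996th and Srm the 2806th by size.

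**Figure D3:**
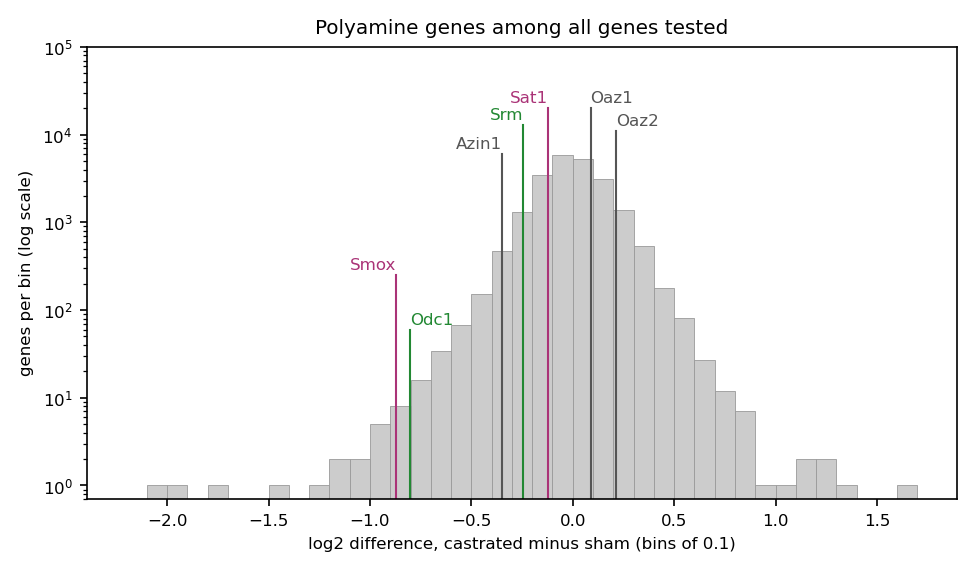
Number of genes (vertical axis, log scale) by log2 difference, castrated minus sham (horizontal axis, bins of 0.1), for all 22180 genes, with a coloured line at each measured polyamine gene (green for synthesis, purple for catabolism, grey for regulation). Smox at −0.87 and Odc1 at −0.80 lie in the lower tail, and the other members lie between −0.35 and 0.21.

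The members did not share 1 pattern over the samples within a group. Odc1, Srm and Azin1 were highest among castrated samples in sample 1, where Smox was lowest. Among sham samples Smox was lowest in sample 3, where Azin1 was highest. Castrated sample 1 is the sample with the high slow fibre markers, and without it the differences were −0.88 for Odc1, −0.28 for Srm, −0.44 for Azin1 and −0.72 for Smox.

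Likeness over the 6 samples was measured as the root mean square distance between log2 profiles, each centred on its own mean, among 10351 named genes of the brighter part of the array. The genes nearest to Odc1 were Tmem43 (0.11), Adgrd1 (0.12), Ahcy (0.13), Nxn (0.14) and Bloc1s2 (0.14), against 0.41 for a flat profile. The nearest, Tmem43, read 7.86, 7.49 and 7.74 in sham and 7.10, 6.72 and 6.95 in castrated samples. Nearest to Smox were Tmem100 (0.20), Neto2 (0.22), Kcng4 (0.24), Cbr2 (0.24) and Gdap1 (0.25), against 0.54 for a flat profile. Tmem100 read 8.31, 8.31 and 7.63 in sham and 6.67, 7.02 and 7.04 in castrated samples, its lowest sham value being in sample 3. All 10 genes were picked for nearness over these same 6 samples, so their shared pattern follows from the choice and is no separate support. None of these 10 genes passed the threshold, with limma adjusted p between 0.317 and 0.685. The lists of Odc1 and Smox held no gene in common.

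Other genes that supply, carry or use polyamines showed no common direction. Of 31 such genes 28 were measured, and 14 were lower and 14 higher in castrated samples, with a median of −0.0084. None passed the threshold, the smallest limma adjusted p being 0.668, and at an unadjusted p under 0.05 in limma there were 0 lower and 1 higher. Groups did not overlap for 2 lower and 2 higher genes, or 14.3%, close to the 12.8% of all genes in either direction.

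In ornithine supply, Arg2, the mitochondrial arginase, differed by −0.18 with groups that did not overlap, and the ornithine carrier Slc25a15 by −0.23 with overlap. In methionine supply and salvage, Mat1a, an S-adenosylmethionine synthetase best known from liver, differed by 0.29 with every castrated sample above every sham sample. Its log2 values were 5.07, 5.06 and 4.81 in sham and 5.22, 5.28 and 5.31 in castrated samples, near the array medians. Enoph1 of the salvage route differed by 0.21.

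Among transporters, Slc18b1, a vesicular polyamine carrier, differed by 0.24 without overlap and the organic cation carrier Slc22a2 by 0.44 with overlap. Differences of similar size ran the other way in the arginine carrier Slc7a1 (−0.28) and the lysosomal polyamine exporter Atp13a2 (−0.29), both with overlap and added here after their values were seen. Of 7 measured transporters 4 were lower and 3 higher, with a median of −0.021. Hypusination uses spermidine to modify the translation factor eIF5A. Its first enzyme, Dhps, differed by −0.15 without overlap, and the second, Dohh, by 0.025. In the remaining antizyme family Oaz3 differed by 0.19 and Azin2 by 0.0096, and in other catabolism Sat2 differed by 0.041 and Satl1 by −0.081. Arg2, Slc22a2, Oaz3 and Satl1 lay below the array medians in every sample, and their signals were not tested against background.

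**Figure D4:**
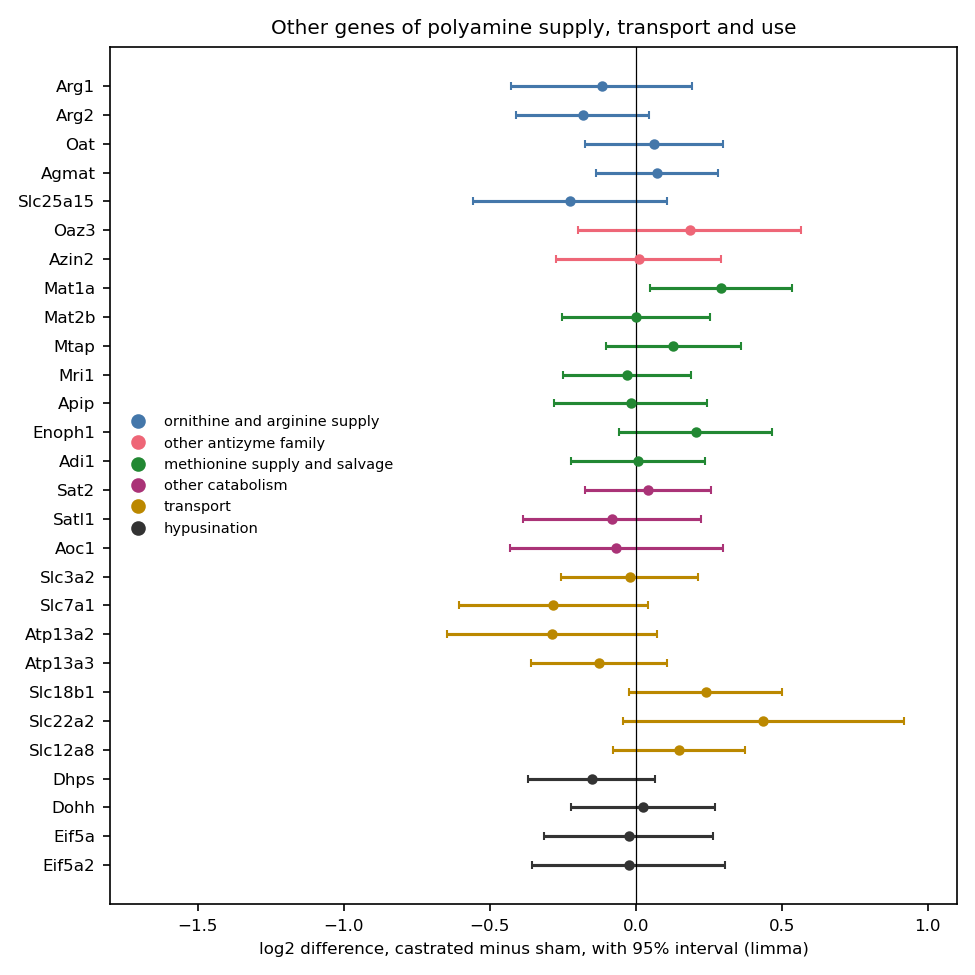
Log2 difference, castrated minus sham, with its 95% interval from limma (horizontal axis) for the 28 measured genes of polyamine supply, transport and use, coloured by role. The points lie between −0.29 and 0.44, and the interval of Mat1a is the only 1 that leaves out 0.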

How the data were processed

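Total RNA was labelled with biotin for Affymetrix whole-transcript arrays, per the labels' protocols. The deposited values are log2 expression per probe set, normalized by the authors. The submitters' processing notes name Partek but no version, and how background was corrected, probes summarized and arrays normalized is not given in the sources used here. Normalization can compress differences, and precision is limited by having 6 arrays.

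Of 41345 probe sets, 23521 carry 1 gene symbol, 1814 several and 16010 none. Symbols were updated through Entrez identifiers (23328 matched, assembly GRCm38.p6). Each gene is its probe set with the highest mean, with no filter on dim genes. Castrated was compared with sham by lmFit and eBayes of limma (version 3.58.1, run under R 4.3.3) without covariates, and p-values were adjusted by Benjamini-Hochberg over all 22180 genes, with a threshold of 0.05. The fit was tested on simulated data. Named by rule were all members, the 2 genes with the smallest p of each wider role, and the 5 genes nearest to Odc1 and to Smox. Slc7a1 and Atp13a2 were added outside this rule after their values were seen. The members and lists were chosen with earlier results of these data known. The labels name a mouse per sample without stating that all are different animals, so the spread behind each p-value is that between these samples and may be technical. Alternatives covered scaling, filters, probe sets, the replicate block, the variance model and each sample left out. Figures used matplotlib 3.10.9.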

Additional observations from a re-analysis of the deposited data

How the results depend on the processing

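Each member and count was recomputed under 17 alternatives, 6 of which left out a sample. No member changed direction in any of them, and 5 members were lower in each. Odc1, at −0.80, passed the threshold with the filters at the 25th and 50th percentile and with the trended and robust prior, where 1 member passed, and in the other 14 alternatives 0 passed. The filters test fewer genes. The standard error of Odc1 was also smaller, at 0.105 and 0.0998 with the filters and 0.0922 with the trended prior, against 0.110 in the main fit. The part of each in these calls was not tested. Leaving out a sample put Odc1 between −0.88 and −0.75, with limma adjusted p from 0.174 to 0.568. The number of members with groups that did not overlap was 4 or 5 with all samples, beside 12.2% to 14.8% of all genes. With a sample left out it ran from 4 to 6, beside 21.9% to 24.1% of all genes, since smaller groups overlap less often. No gene of the wider list passed in any alternative. The median of all genes was −0.0056 in the deposited values. It was −0.011 after quantile normalization, −0.0078 after cyclic loess normalization and −0.043 after median centring. The difference of every measured member moved up with quantile and cyclic loess normalization and down with median centring. For Odc1 it was −0.77, −0.76 and −0.84 in that order.

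With the replicate block Odc1 remained at −0.80 (limma adjusted p = 0.251) and no call on a member changed. Same-numbered samples correlated in their deviations from the group means at 0.076, 0.033 and 0.047. These values are small, but each sample correlated best with its own number. Whether same-numbered samples are pairs was not tested. Of all genes the block called 2, against 3 without it.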
